A study of Zea mays with 57 samples.

Results

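The genes described here are the lower weight regulators of a gene network that the study's authors built for maize seedling shoots. The authors' deposited table gives a score, called a weight, to each pair of a regulator and 1 of 2732 targets. The members were chosen by these scores: the weights of each regulator were summed over its targets, pairs of a gene with itself left out, and the regulators were ranked by that sum. The members are all regulators from rank 51 down, 74.9% of the regulators of the table. Zm00001d049543, at rank 196, was left out with 5 other listed genes that are not regulators in the table. Every member has counts in the expression table of 46335 genes and passed its filter on low counts, as 18412 genes did.

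Regulators in such tables are usually transcription factors, proteins that bind DNA near other genes and raise or lower their transcription. In plants that meet nitrate after starvation, a first wave of transcription starts within minutes. In Arabidopsis it is led by NIN-like proteins, which sense nitrate and in turn act on genes of further regulators. The files give only gene IDs, and 0 of the member IDs occur in the reference table of gene names used here, so no member is given a name, a protein family or a function below. No sequence is shown, as none of these genes was matched to one.

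B73 maize was grown for 10 days, the last 2 of them without nitrogen. In the morning, 2 h after lights on, seedlings went into nitrogen medium (20 mM KNO3 and 20 mM NH4NO3, with 10% of the nitrogen labelled with 15N) or into 20 mM KCl, which carries potassium without nitrogen. Shoots were sampled at the start (0 min) and at 9 times from 5 to 120 min in each medium, which gives 19 groups of 3 replicates, each a pool of tissue from 3 seedlings. P-values therefore measure the spread between pools. All groups share the genotype and the starvation, and the media also differ in ammonium, chloride and total salt, so effects of nitrate, ammonium and these other ions cannot be told apart. The assay sequences the 3' ends of transcripts and counts molecules with unique identifiers. In bulk shoots, fewer cells of a type and less RNA per cell cannot be told apart.

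Of the 57 libraries, 56 held 1057488 to 5684785 counts, and nitrogen 120 min replicate 3 held 8560, with 43 counts on 25 members. That library stays in the fits and is left out of every mean, SD and range below, so nitrogen has n = 26, KCl n = 27 and the start n = 3. The members took 0.575% to 0.752% of a library's counts, the highest share being that of KCl 120 min replicate 3, and at least 146 of them were detected in each. Levels are counts per 1000000 after TMM scaling (CPM), and 3 counts, the limit that a count of 0 allows, correspond to 0.520 to 2.93 CPM depending on the library. Plastid genes took 0.188% ± 0.0698 of the counts in nitrogen (SD, n = 26) and 0.339% ± 0.0979 in KCl (SD, n = 27), so library composition moved with the medium, and its part in the differences between the media was not tested.

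The summed weights that chose the members are a description and were not tested. In the authors' deposited table the members' sums ran from 4.27 to 836.8 with a median of 412.4, against 842.3 to 2668.8 with a median of 1177 for the 50 regulators above them. Together the members carried 50.6% of all weight in the authors' deposited table and the 50 regulators above them 49.3%. Within the members the weight fell off steeply: in the authors' deposited table the 51 members of the upper range of ranks carried 28.2%, the 51 of the middle range 16.8% and the 50 of the lower range 5.67%. The rank limit cuts through a continuous run of values, with Zm00001d016361 (rank 49, 844.5) and Zm00001d023282 (rank 50, 842.3) just outside it and Zm00001d037941 (rank 51, 836.8) and Zm00001d012092 (rank 52, 836.2) just inside it in the authors' deposited table. At the other end stood Zm00001d046925 (rank 202, 8.37) and, last of all, Zm00001d004744 (4.27) in the authors' deposited table.

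Low sums went with fewer targets of appreciable weight, which the choice by sums of these same weights largely fixes. A member had between 0 and 165 targets at a weight over 1 in the authors' deposited table, with a median of 65, where the 50 regulators above had 134 to 535 with a median of 213. Weights of exactly 0 filled 40% of the members' pairs and 18.2% of the others' in the authors' deposited table. A member's 10 strongest targets took a median of 21.1% of its weight, against 18.6% for the 50 above. Single links could still be strong: the highest weight of the authors' deposited table, 110.9, joined the member Zm00001d051700 to the target Zm00001d048611.

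The members' strongest links converged on few targets. In the authors' deposited table the strongest targets of all members were 23 genes, 0 of which are regulators. Zm00001d046170 was the strongest target of 41 members and of 16 of the 50 regulators above, and Zm00001d048611 that of 32 members. These are among the most abundant transcripts of the data: Zm00001d046170 averaged 6084 CPM, and its SD over libraries was the largest of all 2732 targets. Across the 2732 targets, the weight received from all regulators in the authors' deposited table followed the mean level (Spearman's rho 0.905) and the SD over libraries (rho 0.905), a description across genes that share all their libraries. For the 2529 targets that are no regulators, members supplied a median of 53% of the weight received (33.7% to 72.1%), and over 50% for 1656 of them, in the authors' deposited table.

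**Figure D1:**
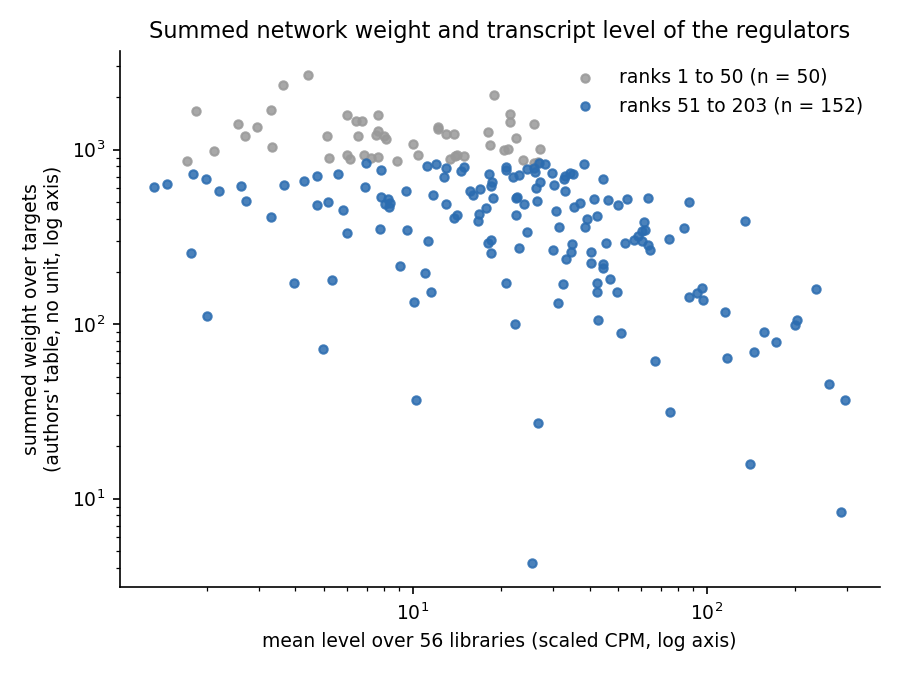
Each point is 1 regulator, placed by its mean level over 56 libraries in scaled counts per 1000000 (x, log axis) and by its summed weight in the authors' deposited table (y, log axis, no unit). The members (blue) reach levels that the 50 regulators ranked above them (grey) do not, and the lower range of ranks has the highest median level, 42.6 CPM.

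Transcript levels differed along the ranking. As the plot of summed weight against level shows, the members averaged 1.32 to 295.5 CPM with a median of 26, the 50 regulators above them 1.71 to 27.0 with a median of 8.08, and all genes tested had a median of 18.5. The median level was 18.2 CPM in the upper, 26.5 CPM in the middle and 42.6 CPM in the lower range of ranks. Summed weight and mean level had a Spearman's rho of -0.54 over all regulators and -0.44 over the members, a description across genes measured in the same libraries. Summed weight had nearly no relation to the size of the nitrogen to KCl difference (rho 0.04 over the members). Of the members, 13 were above 100 CPM and 16 below 5 CPM.

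The most abundant members were among those with the least weight. Zm00001d005051, rank 198, averaged 295.5 CPM and Zm00001d046925, rank 202, averaged 285.0 CPM. Zm00001d046925 varied least of all members, with a coefficient of variation of 11.5% over 56 libraries, and held 295.2 ± 34.2 CPM in nitrogen (SD, n = 26), 276.7 ± 30.3 in KCl (n = 27) and 269.9 ± 20.0 at the start (n = 3). Zm00001d005051 differed among the nitrogen groups, with 393, 450 and 472 CPM at 5 min and 202.8, 207 and 234 CPM at 90 min (edgeR quasi-likelihood test among the 9 nitrogen groups, adjusted p = 1.68e-06).

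The members lie across the genome in the AGPv4 annotation that the count table uses. Of them, 151 are on the 10 chromosomes and 1 on an unplaced contig, with 38 on chromosome 1 and 7 to 19 on each of the others. Exon length ran from 183 to 14176 bases with a median of 1805.5, and the median number of exons was 3. Within 200000 bases of each other lay 4 pairs of members. Of these, Zm00001d033344 and Zm00001d033347, 173070 bases apart on chromosome 1, were both higher in nitrogen on average, by 0.43 and 2.80 on the log2 scale. Zm00001d039006 and Zm00001d039014, 49726 bases apart on chromosome 6, were both lower, by -0.42 and -0.88. In the remaining pairs the signs were opposite. Zm00001d027925 stood at 0.98 and Zm00001d027929 at -0.30 (adjusted p = 0.0727 for the latter, edgeR). Zm00001d024543 stood at -0.34 and Zm00001d024547 at 0.37 (adjusted p = 0.140 for the latter, edgeR). With a score for the spread between replicates in the model, described below, Zm00001d033344 stood at 0.22 (adjusted p = 0.397), Zm00001d039014 at -0.10 (adjusted p = 0.781) and Zm00001d039006 at 0.01 (adjusted p = 0.952), the other sign, so these 3 calls were lost (edgeR). With the same score Zm00001d024543 lost its call (adjusted p = 0.916, edgeR) and Zm00001d027929 took the other sign, at 0.48 (adjusted p = 0.0458).

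The main comparison asks which members differed between nitrogen and KCl over the whole course. Averaged over the 9 times, 113 members passed the test, 69 higher and 44 lower in nitrogen (edgeR quasi-likelihood test, Benjamini-Hochberg adjusted p under 0.05 over all genes tested). That is 74.3% of the members, against 58.8% of all genes tested, of which 29.9% were higher and 28.9% lower. Other genes of the network stood at like shares: 75.8% of the targets that are no regulators and 80% of the 50 regulators above, so a high share of calls belongs to the genes of the network table at large. How those genes were chosen is not known here, and the authors may have used these libraries, so the share is no independent evidence. The median log2 difference was 0.13 over the members, -0.11 over the 50 regulators above and 0.01 over all genes tested. Most differences were small: the median size of a called difference was 0.43 on the log2 scale (0.36 over all genes called), and 14 of the 113 exceeded 2-fold (4.25% of all genes tested were called and exceeded 2-fold).

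On average the test was passed by 33 of 51 members in the upper range of ranks (16 higher, 17 lower), 39 of 51 in the middle range (29 higher, 10 lower) and 41 of 50 in the lower range (24 higher, 17 lower). The median level is higher in each lower range, as given above, and its part in these counts was not tested. The count was 52 (33 higher, 19 lower), 46 of them among the 113, when a score for the main axis of spread between replicates, not centred within groups, was added to the model, an alternative chosen after the data were seen. With that score 23.1% of all genes were called. The score itself differs between the media, with a median of -0.619 over nitrogen and 0.754 over KCl libraries in SD units, so it takes up part of the difference between them. In all 64 alternatives 42 members kept the call (27 higher, 15 lower), and 15 of the 113 took the other sign with the score for the spread. Such counts were not made for all genes.

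The largest average difference was that of Zm00001d033347, on chromosome 1 at 259828724 to 259831189 (plus strand, 2 exons, rank 136). Its start libraries held 0.777, 2.38 and 1.04 CPM, and KCl libraries stayed between 0 and 2.93 CPM with a median of 1.45. Its 5 min nitrogen libraries held 1.40, 2.32 and 3.39 CPM. The 20 min libraries held 4.89, 14.4 and 13.6 CPM, those of 45 min 35.2, 31.5 and 13.9 CPM, and the deep ones of 120 min 31.9 and 20.8 CPM. Thus the media overlapped at 5 min, and from 15 min on every nitrogen library was above every KCl library of its time. Averaged over the times the difference was 2.80 on the log2 scale (SE 0.204, adjusted p = 2.30e-16, edgeR), and 21 of 26 nitrogen libraries exceeded all 27 KCl libraries. Against the start it rose in nitrogen, by 2.77 (SE 0.427, adjusted p = 4.08e-05), and in KCl the difference was -0.04 (SE 0.511, adjusted p = 0.980).

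A pair of members reached a like average difference by a fall in KCl. Zm00001d018742, on chromosome 7 at 3845026 to 3851209 (plus strand, 3 exons, rank 150), held 36.5, 33.9 and 25.4 CPM at the start. It held 16.5 to 42.4 CPM in nitrogen (median 29.3) and 0 to 23.3 CPM in KCl (median 3.84). The KCl libraries of 5 min held 5.73, 11.3 and 13.5 CPM, and those of 30 min 1.62, 0.732 and 1.5 CPM. The average difference was 2.80 (SE 0.197, adjusted p = 9.09e-17, edgeR). Against the start it fell in KCl, by -2.92 (SE 0.329, adjusted p = 1.55e-08), while nitrogen stood at -0.12 (SE 0.290, adjusted p = 0.904).

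Zm00001d040611, on chromosome 3 at 53767845 to 53777713 (plus strand, 5 exons, rank 112), followed the same course at a lower level. It held 12.4, 17.8 and 10.4 CPM at the start, 7.49 to 18.9 CPM in nitrogen (median 14.1) and 0 to 10.0 CPM in KCl (median 2.78). The media did not overlap at any of the 9 times. The average difference was 2.53 (SE 0.179, adjusted p = 1.08e-16, edgeR), with a fall of -2.54 against the start in KCl (SE 0.309, adjusted p = 8.69e-08) and -0.02 in nitrogen (SE 0.261, adjusted p = 0.997). At 5 min alone, its difference of 1.25 (SE 0.383, adjusted p = 0.0187) lost its call in 8 of 16 alternatives, with adjusted p from 0.000267 to 0.383.

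Among members lower in nitrogen, Zm00001d035907 stood lower from 5 to 60 min, and the media met at the end. This gene, on chromosome 6 at 59432425 to 59435437 (plus strand, 4 exons), held 7.38, 6.25 and 23 CPM at the start. At 5 min it held 5.87, 8.28 and 2.03 CPM in nitrogen and 35.7, 33.5 and 29.6 in KCl, a difference of -2.60 (SE 0.406, adjusted p = 4.57e-05, edgeR), or -1.36 with the uncentred score (adjusted p = 0.0411). The difference was largest at 45 min, at -2.88, where the call was lost with the uncentred score (adjusted p = 0.103, edgeR). At 120 min nitrogen held 34.3 and 21.6 CPM and KCl 39.5, 18.6 and 24.4, so the media overlapped, with a difference of 0.08 (SE 0.374, adjusted p = 0.986). The average difference was -1.86 (SE 0.145, adjusted p = 2.46e-15), or -0.94 with the uncentred score (adjusted p = 2.89e-05), and KCl rose against the start by 1.25 (SE 0.303, adjusted p = 0.00474). Within nitrogen the level differed over time (adjusted p = 3.04e-05).

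Zm00001d025141, on chromosome 10 at 106318787 to 106321238 (minus strand, 3 exons, rank 88), rose in KCl against the start. It held 4.66, 1.49 and 0.696 CPM at the start and 0.694, 1.74 and 0 in KCl at 5 min. After 45 min KCl held 7.09, 15.3 and 20.9 CPM and nitrogen 2.30, 0.431 and 1.16, and the 120 min libraries of KCl held 20.0, 29.4 and 34.3 and nitrogen 30.6 and 5.89. The log2 difference was -2.24 at 60 min, -2.96 at 90 min and -0.56 at 120 min, where the nitrogen libraries lay far apart. The levels differed over time within nitrogen (adjusted p = 2.97e-06) and within KCl (adjusted p = 1.73e-06, edgeR). The average difference was -1.64 (SE 0.243, adjusted p = 1.15e-07), which with the score for the spread between replicates became -0.81 (adjusted p = 0.0763). The rise of KCl against the start, 1.83 (SE 0.515, adjusted p = 0.0147), lost its call with that score and without start replicate 2 or start replicate 3, with adjusted p up to 0.131 over 40 alternatives. In the authors' deposited table its weight on Zm00001d048611, 93.1, was among the highest of all pairs.

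**Figure D2:**
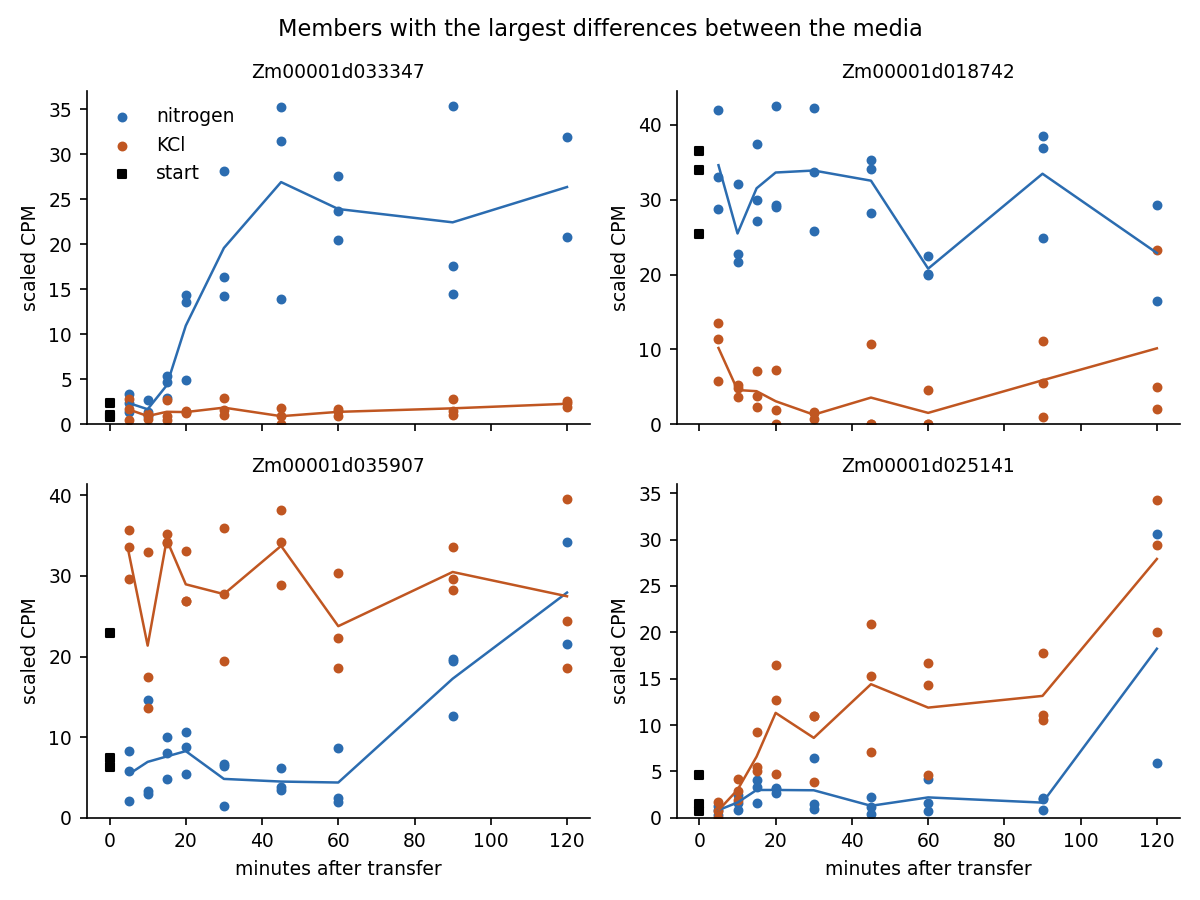
Level in every library (points, scaled counts per 1000000) against minutes after transfer for the 2 members most above and the 2 most below KCl on average by the rule for named members, in nitrogen (blue), KCl (orange) and at the start (black squares), with lines through the group means. Zm00001d033347 climbs in nitrogen from 15 min and stays low in KCl, Zm00001d018742 is low in KCl from 5 min, Zm00001d035907 is low in nitrogen until 60 min, and Zm00001d025141 climbs in KCl from 15 min.

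Other members differed by less yet at most times, as the plot of every member's difference by time shows. Zm00001d020409 (rank 131), named after its values were seen, was called at 8 of the 9 times, more than any other member, and its media did not overlap at any time. It held 98.2 ± 13.3 CPM at the start (SD, n = 3), 92.7 ± 26.5 in nitrogen (n = 26) and 179.3 ± 55.2 in KCl (n = 27), an average difference of -0.91 (SE 0.0518, adjusted p = 1.31e-19, edgeR). At the other extreme, Zm00001d006922 held 24.7 ± 3.52 CPM in nitrogen and 24.3 ± 3.68 in KCl, with a difference of 0.02 (SE 0.0521, adjusted p = 0.809).

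**Figure D3:**
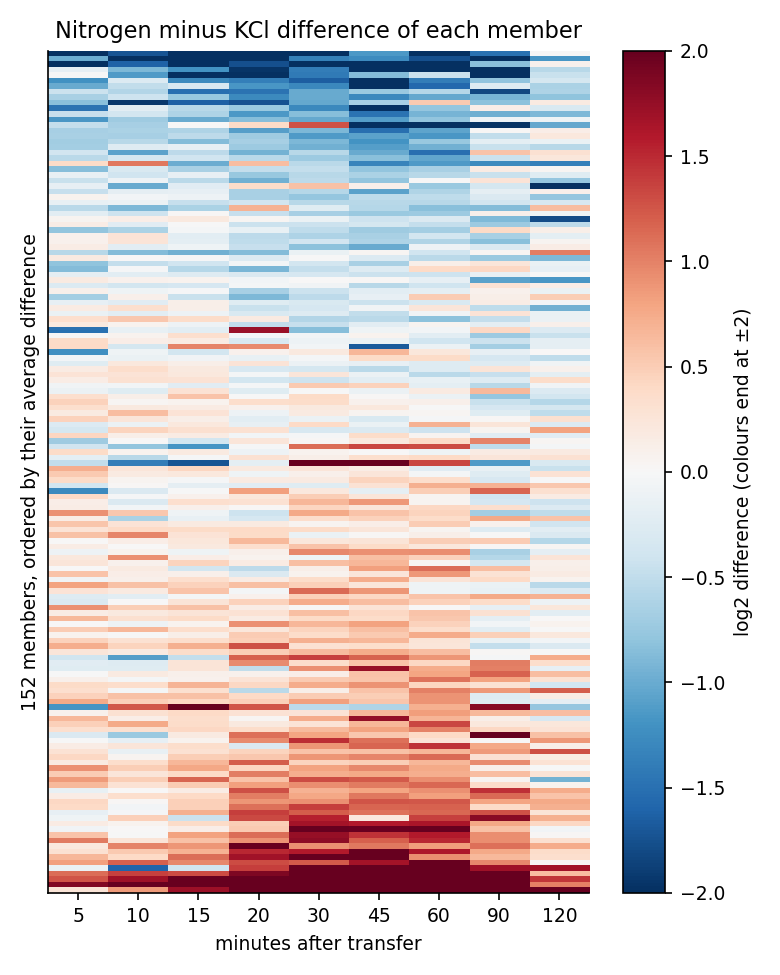
Nitrogen minus KCl difference (log2, colours end at 2 in either direction) of each member, ordered from the lowest average at the top to the highest at the bottom, at each of 9 times in minutes after transfer. Colours are palest at 10 and 120 min, and red below the middle deepens from 20 to 60 min.

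The differences at single times were largest in the middle of the course. The median size of the members' log2 difference was 0.36 (5 min), 0.27 (10 min), 0.62 (45 min) and 0.29 (120 min). At 5 min 41 members passed, 27% against 18% of all genes tested, with 24 higher (8.32% of all genes) and 17 lower (9.71%). Other genes of the network stood at like shares, 33.4% of the targets that are no regulators and 24% of the 50 regulators above. At 10 min 1 member passed, lower in nitrogen, against 0.277% of all genes (0.147% higher, 0.13% lower). The count at 10 min was the lowest of the 9 times.

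At 15 min 25 members passed, 16.4% against 7.67%, with 10 higher (2.8% of all genes) and 15 lower (4.87%). At 20 min 59 passed, 38.8% against 26.7%, with 29 higher (13.3%) and 30 lower (13.4%). At 30 min 59 passed, 38.8% against 14.3%, with 40 higher (6.62%) and 19 lower (7.66%). At 30 min, as at 5 min but not at 15 or 20 min, more members were called higher than lower. All genes stayed nearly even at 20 and 30 min, and the shift in the members was not tested. At 45 min 81 passed, 53.3% against 23.7%, with 51 higher (9.99%) and 30 lower (13.7%). At 60 min 68 passed, 44.7% against 20.6%, with 44 higher (9.68%) and 24 lower (10.9%). The 45 min count was the highest of the 9 times, but not with the uncentred score, under which 20 passed at 45 min, 38 at 20 min, 22 at both 30 and 60 min and 2 at 5 min. At 90 min 36 passed, 23.7% against 6.61%, with 23 higher (3.24%) and 13 lower (3.37%). At 120 min 11 passed, 7.24% against 1.07%, with 4 higher (0.483%) and 7 lower (0.587%). The targets that are no regulators stood near the members at 45 min, with 53.9%. Their shares from 15 to 30 min and from 60 to 120 min are not given here. Nor are the shares of all genes called at single times with the uncentred score.

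Several of these counts rest on single libraries. The shares of all genes called in the same fits are not given. The counts therefore do not show whether members lost or gained calls more than other genes. At 5 min 21 members passed without KCl replicate 2 and 8 without nitrogen replicate 3. At 10 min 20 passed without nitrogen replicate 3 and 0 without nitrogen replicate 1, KCl replicate 2 or KCl replicate 3. At 20 min 39 passed without KCl replicate 3, and at 30 min 38 without KCl replicate 1 and 24 without nitrogen replicate 3. At 90 min 19 passed without KCl replicate 1 and 22 without nitrogen replicate 3, and at 120 min 3 without nitrogen replicate 2 and 6 without KCl replicate 3.

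**Figure D4:**
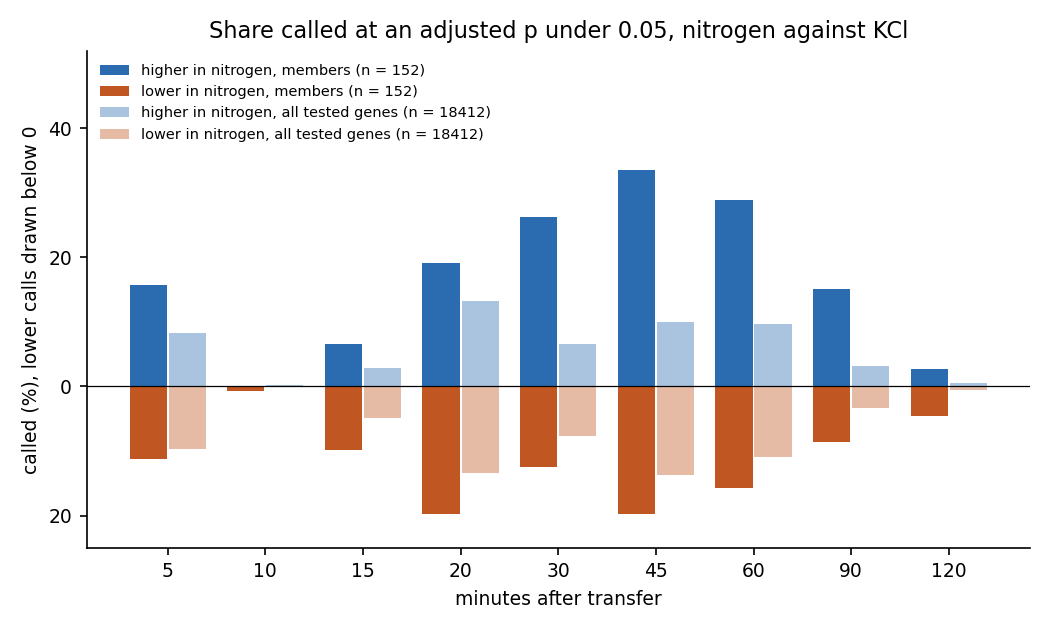
Share of members (dark bars) and of all genes tested (pale bars) called at an adjusted p under 0.05 at each time, with genes higher in nitrogen above 0 and genes lower in nitrogen below 0. From 30 to 90 min more members are called higher than lower, and at 10 and 120 min few are called.

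Per member, 127 were called at 1 or more single times, 83.6% against 48.9% of all genes tested, and 5 of these in both directions (0.244% of all genes). A single call was the most common case, with 34 members (20.7% of all genes), and 8 or more calls occurred in 1 member (0.125%). The first call came at the 5 min sampling in 41 members (18% of all genes) and after 20 min in 31 (15.8%). The libraries of the media did not overlap after 5 min in 73 members (37.3% of all genes tested), after 10 min in 29 (16.6%), after 15 min in 62 (32.4%), after 20 min in 72 (35.7%) and after 30 min in 88 (33.7%). After 45 min they did not overlap in 104 members (42.3%), after 60 min in 80 (34.4%), after 90 min in 88 (28.6%) and after 120 min in 48 (22.9%). In 50 members they did not overlap at 6 or more of the 9 times, where 13.8% of all genes tested did so. In 11 members no comparison of the 15 made here passed, against 33.1% of all genes tested.

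Each medium was also set against the start. Averaged over the 9 times, 34 members passed in KCl, 22.4% against 11.2% of all genes tested, with 20 higher (4.8% of all genes) and 14 lower (6.35%). In nitrogen 11 passed, 7.24% against 0.521%, with 11 higher (0.353%) and 0 lower (0.168%). Shares of other genes of the network are not given here, so these shares are not shown to be particular to the members. The 3 start libraries serve both comparisons, so the values are given side by side. Of the 69 members higher in nitrogen than in KCl, 9 were above the start in nitrogen, 13% against 0.98% of all genes higher on average, and 13 below it in KCl, 18.8% against 20.4%. Of the 44 lower in nitrogen, 0 were called against the start in nitrogen, where 0.545% of all genes lower on average were, and 17 were above it in KCl, 38.6% against 15.5%. The start held few libraries: without start replicate 1 the KCl count was 11 and without start replicate 2 it was 16, and without nitrogen 10 min replicate 3 the nitrogen count was 17. Shares of all genes in those fits are not given here.

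Zm00001d021208, on chromosome 7 at 146038525 to 146039307 (minus strand, 1 exon, rank 137), was nearly absent at the start and rose in both media. Its start libraries held 0, 0.297 and 0.348 CPM, 2 counts in all. Its KCl libraries of 15 min held 11, 31 and 37.9 CPM, those of 20 min 4.77, 45.8 and 25.4 CPM, and those of 45 min 0.945, 1.76 and 1.07 CPM. Its nitrogen libraries of 15 min held 8.36, 8.26 and 7.50 CPM, those of 30 min 25.5, 33.6 and 38.5 CPM, and those of 45 min 9.20, 9.92 and 8.90 CPM, so the peak came later than in KCl. It was lower in nitrogen at 15 min (-1.72, SE 0.466, adjusted p = 0.0149, edgeR) and higher at 30 min (2.09, SE 0.5, adjusted p = 0.00371) and 45 min (2.87, SE 0.851, adjusted p = 0.0111), with an average of 0.12 (SE 0.237, adjusted p = 0.682). The mean level was 46.4 times the pooled start level in nitrogen (95% exact Poisson interval of the start count, 12.8 to 382.7) and 42.9 times in KCl (11.9 to 354.6), intervals that cover counting error only. Both rises passed the test (adjusted p = 0.00478 in nitrogen and 0.00133 in KCl), and the one in nitrogen lost its call without start replicate 3 and with thinned counts.

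Over time within a medium, 64 members changed in nitrogen, 42.1% against 13.1% of all genes tested, and 37 in KCl, 24.3% against 5.14% (F test among the 9 groups). In nitrogen the 50 regulators above (42%) and the targets that are no regulators (41.9%) stood at the same share. Their shares in KCl are not given here, so the KCl share is not shown to be particular to the members. Both media passed for 16 members (10.5% against 1.51% of all genes), nitrogen alone for 48 (31.6% against 11.6%) and KCl alone for 21 (13.8% against 3.63%), a difference between media that was not tested as such. The nitrogen count was 37 with the uncentred score and 41 with thinned counts, and the KCl count 24 with DESeq2 and 23 with thinned counts. Without KCl 120 min replicate 3, the library with the highest share of member counts, the KCl count was 23. For these alternative fits the shares of all genes are not given. Of all members, 23 had their highest group mean at 60 min in nitrogen (15.1% against 9.81% of all genes) and 22 at 120 min in KCl (14.5% against 9.23%).

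Whether the difference between the media changed over the course was tested as the mean difference at 45 to 120 min minus that at 5 to 30 min. It did in 23 members, 15.1% against 1.41% of all genes tested, with 13 upward (0.559% of all genes) and 10 downward (0.853%). It did so in 10% of the 50 regulators above and 8.54% of the targets that are no regulators. In 19 of the 23 the later difference was the larger in size, and in 11 the early and late differences had opposite signs. The early and late means were not tested by themselves, and some were small, such as -0.04 late in Zm00001d046778. Of the 23, 4 changed by over 2-fold, as did 51 of the 260 genes called among all genes tested. The count was 10 with DESeq2, 11 with thinned counts, 35 with the score centred within groups and 36 without a filter, and 17 to 26 when single libraries were left out. Shares of all genes in those fits are not given, so these shifts are not shown to be particular to the members.

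Zm00001d033347, described above, changed most among members of 5 CPM or more, by 2.19 (SE 0.483, adjusted p = 0.00721, edgeR), from an early mean difference of 1.83 to a late one of 4.02. The call was lost without KCl 10 min replicate 3 and with thinned counts, with adjusted p from 2.04e-06 to 0.152 over 64 alternatives. Zm00001d047732 (rank 70) held 12.4, 10.9 and 12.6 CPM in KCl at 15 min against 1.45, 4.72 and 4.82 in nitrogen, and 2.03, 3.38 and 1.86 against 2.86, 3.14 and 4.33 at 60 min. The groups were apart at 15 min and overlapped at 60 min, and the difference moved from -1.43 early to -0.19 late, a change of 1.24 (SE 0.283, adjusted p = 0.0112) that was kept in all 64 alternatives.

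In the other direction, Zm00001d024543 (rank 59) held 17.6, 20.5 and 9.15 CPM in nitrogen and 15.6, 16.3 and 13.1 in KCl at 5 min, and 35.8 and 22 against 52.7, 64.7 and 181.0 at 120 min. The media overlapped at 5 min and were apart at 120 min, with KCl replicate 3 far above the others. The change was -0.90 (SE 0.230, adjusted p = 0.0298, edgeR), and without KCl 120 min replicate 3 it was -0.70 (adjusted p = 0.0493). The call was lost without any one of 9 other libraries (nitrogen 5 min replicate 2, 45 min replicate 1, 90 min replicate 3 and 120 min replicate 2, KCl 30 min replicate 1, 45 min replicates 2 and 3, 60 min replicate 1 and 90 min replicate 1), with adjusted p from 1.15e-07 to 0.0750 over 64 alternatives. Zm00001d046778 (rank 64) held 21.6, 24.3 and 21.2 CPM in nitrogen against 9.11, 9.45 and 8.99 in KCl at 20 min and 9.60 and 9.82 against 10.0, 13.9 and 11.2 at 120 min, a change of -0.74 (SE 0.193, adjusted p = 0.0341). The groups did not overlap at either time and stood in opposite order. Averaged over the early times the difference was 0.69, and over the late times it was near 0, at -0.04. The call was lost in 25 of 64 alternatives, with adjusted p from 0.00285 to 0.0985, most of them single libraries left out.

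**Figure D5:**
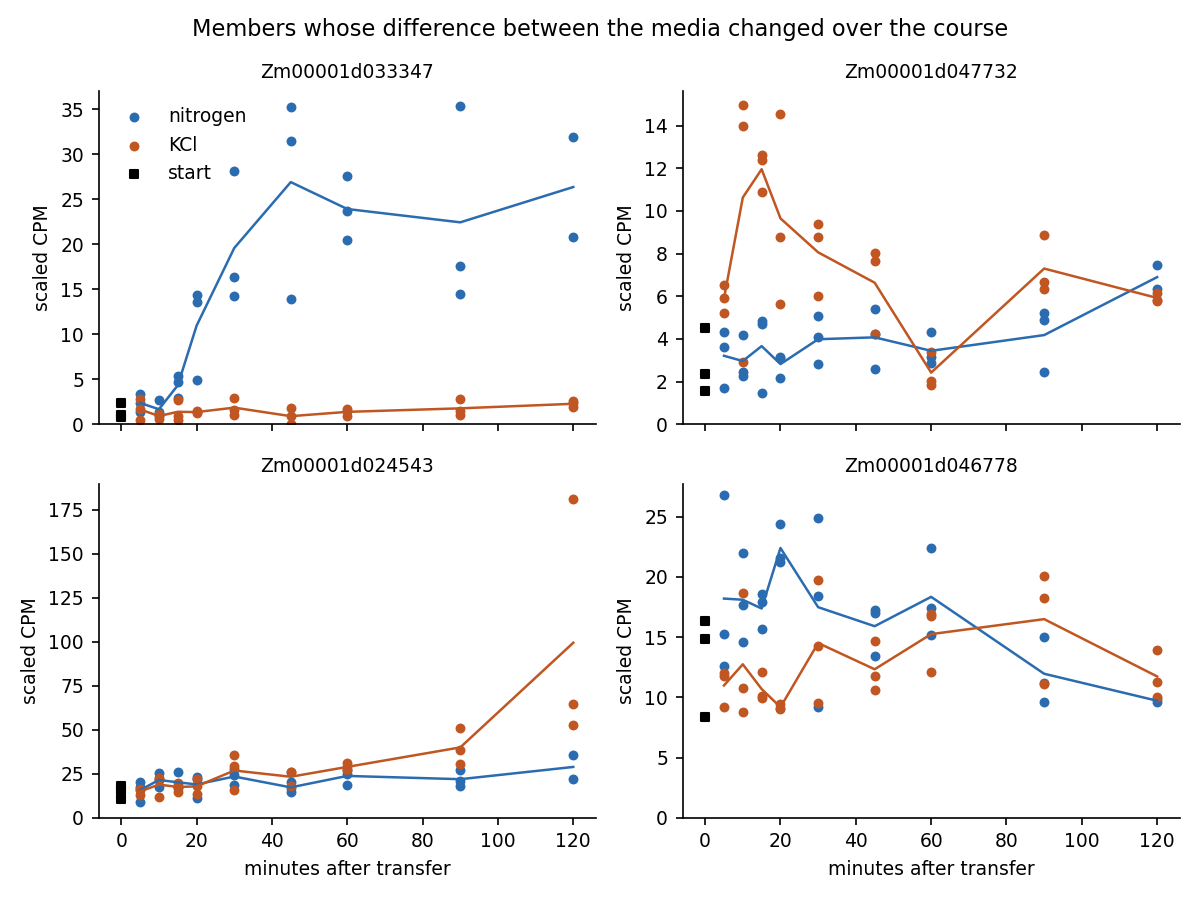
Level in every library (points, scaled counts per 1000000) against minutes after transfer for the 2 members in each direction whose difference between the media changed most over the course among those of 5 CPM or more, in nitrogen (blue), KCl (orange) and at the start (black squares), with lines through the group means. The media part with time in Zm00001d033347 and Zm00001d024543 and come together in Zm00001d047732. They cross in Zm00001d046778, whose mean difference over the late times was -0.04.

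An average near 0 could hide such a change. Zm00001d037949 (rank 186) held 22.6 ± 4.82 CPM in nitrogen (SD, n = 26) and 22.1 ± 4.05 in KCl (n = 27), an average difference of 0.02 (SE 0.0673, adjusted p = 0.842, edgeR). Its early mean difference was 0.28 and its late one -0.31, a change of -0.59 (SE 0.136, adjusted p = 0.0125). At 90 min nitrogen held 14.9, 15.8 and 16.8 CPM and KCl 31.1, 26.9 and 23.3, so the groups did not overlap, while at 20 min they held 27.3, 18.7 and 20.7 against 23, 20.7 and 25.2 and did. The member of the lowest weight, Zm00001d004744, held 34.2, 34.5 and 48.8 CPM in nitrogen against 19.4, 8.78 and 16.5 in KCl at 30 min, and 9.39 and 17.7 against 27.9, 27.9 and 19.3 at 120 min. Its average difference was 0.63 (SE 0.0883, adjusted p = 3.21e-08), which became 0.21 with the uncentred score (adjusted p = 0.161), and its change over the course, -0.56 (SE 0.180, adjusted p = 0.115), did not pass.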

How the data were processed

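The network table holds 203 regulators, of which 152 are members; their ranges of ranks are 51 to 101, 102 to 152 and 153 to 203. The members, gene lists, rule for named members and alternatives were chosen with earlier results of these data known. How the authors made the weights, a score, is not stated in the labels, headers or notes.

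The authors deposited raw whole-number counts per gene. The tools in the submitters' processing notes are featureCounts 2.0.1, STAR 2.7.6a, fastp 0.21.0 and UMI-tools 1.1.1. Per the file headers, featureCounts 1.5.1 counted without a strand option on AGPv4 (release 37). Reads of overlapping or antisense genes therefore cannot be told apart, and near-identical copies were not checked. A second table, quantile normalized by the authors and rounded, was read as a score (18370 genes, 55 libraries). Of the count columns, 2 carry no labelled sample's name and stayed out.

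The quasi-likelihood F test of edgeR 4.0.16 (R 4.3.3) was fitted to 19 group means over 57 libraries, leaving 38 residual degrees of freedom, after filterByExpr and TMM. Two-sided p-values were adjusted by Benjamini-Hochberg over the 18412 genes tested, with a threshold of 0.05. SE is the size of the log2 change over the root of F. Named are, per comparison, the 2 largest called changes each way at a mean of 5 CPM or more (for the average, with 1 sign at 8 or more of 9 times), the extremes of rank and level, and the 2 smallest average differences. Alternatives were DESeq2 1.42.0, other scalings and filters, thinned counts, limma 3.58.1 on the normalized table, a replicate block, scores for the spread within groups and leaving out each library. The fits were tested on simulated counts.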

Additional observations from a re-analysis of the deposited data

Results flagged for a closer look

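For 23 members the difference between nitrogen and KCl changed between 5 to 30 min and 45 to 120 min, by the test of that change itself (edgeR, adjusted p under 0.05), where 1.41% of all genes tested did so. The count was 10 with DESeq2, 11 with thinned counts, 35 with the score centred within groups and 36 without a filter, fits whose shares of all genes are not given. Values are late minus early log2 differences, and no explanation was tested for any of them. A change toward nitrogen was seen in Zm00001d034783 (2.27, adjusted p = 0.0206, at a mean of 2.60 CPM), Zm00001d033347 (2.19), Zm00001d047732 (1.24), Zm00001d033344 (0.88), Zm00001d005951 (0.78, adjusted p = 0.00148), Zm00001d028752 (0.78), Zm00001d025323 (0.75, adjusted p = 0.000154), Zm00001d012401 (0.69), Zm00001d019207 (0.66), Zm00001d015504 (0.56), Zm00001d038270 (0.54), Zm00001d006578 (0.49) and Zm00001d022628 (0.47). A change toward KCl was seen in Zm00001d020714 (-1.88, at a mean of 2.20 CPM), Zm00001d024543 (-0.90), Zm00001d046778 (-0.74), Zm00001d044662 (-0.71), Zm00001d008808 (-0.65), Zm00001d022139 (-0.59, adjusted p = 0.000642), Zm00001d037949 (-0.59), Zm00001d047554 (-0.53), Zm00001d018394 (-0.52) and Zm00001d006860 (-0.33).

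In several of these the early and late mean differences had opposite signs, but neither mean was tested by itself. Zm00001d025323 went from -0.20 early to 0.56 late (SE of the change 0.125). Zm00001d005951 went from -0.12 to 0.67 (SE 0.151) and Zm00001d044662 from 0.59 to -0.13 (SE 0.165). The smaller mean of each was about the size of that SE.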

How the results depend on the processing

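The count of members called on average was 95 to 115 in the alternatives other than the uncentred score for the spread between replicates, and 107 to 115 when single libraries were left out. With that score, added after the data were seen, the average count was 52. For the single times it gave 2 (5 min), 0 (10 min), 8 (15 min), 38 (20 min), 22 (30 min), 20 (45 min) and 22 (60 min), and 37 for time within nitrogen. The score centred within groups gave 14 (10 min), 35 for late minus early and 25 for nitrogen minus start. DESeq2 gave 17 (5 min), 0 (10 min), 16 (15 min), 37 (30 min) and 20 (90 min), 10 for late minus early and 24 for time within KCl. Counts thinned to a common depth gave 20 (5 min), 2 (10 min), 16 (15 min), 35 (20 min) and 6 (120 min), 11 for late minus early, 7 for nitrogen and 17 for KCl minus start, 41 for time within nitrogen and 23 within KCl. The authors' normalized table gave 25 (5 min), 4 (10 min) and 6 (120 min). Without a filter the counts were 13 (10 min), 19 (120 min), 36 for late minus early and 22 for nitrogen minus start. The cause of these shifts was not tested, beyond the fewer counts under thinning. Shares of all genes are not given beside these counts or those with single libraries left out. The counts alone therefore do not show whether a shift was particular to the members.

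Leaving out single libraries gave 8 to 38 (5 min), 0 to 20 (10 min), 17 to 24 (15 min), 39 to 58 (20 min), 24 to 63 (30 min), 55 to 73 (45 min), 48 to 67 (60 min), 19 to 33 (90 min) and 3 to 11 (120 min). It gave 17 to 26 for late minus early, 8 to 17 for nitrogen and 11 to 37 for KCl minus start, 47 to 75 for time within nitrogen and 23 to 38 within KCl. The fit with a replicate block called 112 members on average (69 higher, 43 lower). Replicate numbers did not pair the samples: over 26 pairs the correlation of same-numbered libraries was -0.151 to 0.213, over 0.1 in 1. Of 880 values of single named members under the alternatives, 820 kept direction and call, 60 lost the call and 0 reversed. These members were picked for their large called changes, so this does not describe the members at large. Of all 113 called on average, 71 lost the call in 1 or more alternatives and 15 took the other sign.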
